A study of Mus musculus with 6 samples.

Results

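Among 6 samples of mouse lens ectoderm, 3 arrays carried little Pmel transcript and 3 carried much of it, and these 2 sets, called pigment-low and pigment-high here, are compared. Pmel encodes the protein of the fibrils on which melanin is laid down in pigment cells. Membership was selected on the raw signal of the brighter Pmel probe (ILMN_2627503): the 3 lowest of the 6 arrays are pigment-low (KO 2, KO 3 and WT 2), and the remaining 3 are pigment-high (KO 1, WT 1 and WT 3). KO samples were labelled as knockouts of BMP receptors (those of bone morphogenetic proteins, here of type I), in a line whose titles read ALK23, and WT samples as wild type. Every sample came from embryos at embryonic day 9.5 of a mixed C57BL6 and FVB background. Embryos were frozen and sectioned, the lens ectoderm was cut out by laser after eosin staining, and 15 ng of RNA was amplified for each Illumina array. The tissue label is wider than lens ectoderm, since it names prospective lens or retina. The series text gives 3 embryos per genotype and states that their RNA was pooled, so the spread between samples may be partly technical. Sex-linked genes differed between arrays of the same genotype, as given below, so these were not all aliquots of 1 pool. The Cre driver and the deleted exons are not given in the sources used here.

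At this stage the surface ectoderm thickens into the lens placode where it touches the optic vesicle, a pouch of the forebrain. The outer layer of the vesicle becomes the retinal pigment epithelium, in which the factor MITF switches on melanin genes such as Dct, Trpm1 and Pmel, and the inner layer becomes the neural retina. In the placode, Pax6, Sox2, Maf and Prox1 drive the lens programme, Maf and Prox1 activate crystallin genes, and mesenchyme and vessels surround the eye. Fewer cells of a type in a piece and less RNA per cell cannot be told apart in such bulk samples.

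The raw signal of the Pmel probe, in units of scanner intensity, was 112.3 on KO 2, 105.1 on KO 3 and 110.2 on WT 2, against 781.9 on KO 1, 1042 on WT 1 and 653.1 on WT 3. The group means were 109.2 ± 3.69 in the pigment-low arrays and 825.7 ± 198.2 in the pigment-high arrays (SD, n = 3 each). The member nearest the boundary inside the pigment-low set was KO 2 and the nearest outside it was WT 3, with 540.8 units between them. These values chose the groups and are no finding. The bead standard error of a single array lay between 5.02 and 28.7 units, over 31 to 46 beads. The second Pmel probe averaged 71.8 units over all 6 arrays and was not detected. Pmel was above the detection limit on all 6 arrays, with detection p-values between 0.0306 and 0.0362 on the pigment-low ones.

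The arrays detected 39.6% to 45.0% of 46632 probes in the pigment-low set and 41.3% to 45.7% in the pigment-high set. Median raw signals were 74.5 to 86.3 units in the pigment-low and 83.8 to 90.7 units in the pigment-high set. On the single slide, the pigment-low arrays sat at positions A, C and E and the pigment-high arrays at B, D and F, so position on the slide and pigment group cannot be told apart. Xist was high on KO 3, WT 2 and WT 1 and the Y-linked genes on KO 2, KO 1 and WT 3, so female and male material stood on both sides. Because a measured value set the groups, all differences between them are given as a description, without a test. Values below are background-corrected, quantile-normalized intensities on a log2 scale, and differences are pigment-low minus pigment-high, so that 1 log2 unit is a 2-fold difference.

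Of 20959 probes detected on at least 3 arrays, 440 were at least 1 log2 unit higher on the pigment-low arrays with groups that did not overlap (2.1%), and 558 were lower in the same way (2.66%). The median difference over all these probes was 0.0066, and 92.6% of probes differed by less than 2-fold between the group means. For 10099 named genes, each read by its brightest probe, 165 were higher (1.63%) and 347 lower (3.44%) by this rule. Without the 2-fold minimum, 1466 probes were higher (6.99%) and 1480 lower (7.06%), together 14.1%, and 616 genes were higher (6.1%) and 908 lower (8.99%). Of the 998 probes past the rule, 132 were detected in 1 group only, 51 of them in the pigment-low arrays and 81 in the pigment-high arrays. Such probes passed the detection filter through the group where they were brighter, so their direction was favoured by the filter, also in the list counts below.

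**Figure D1:**
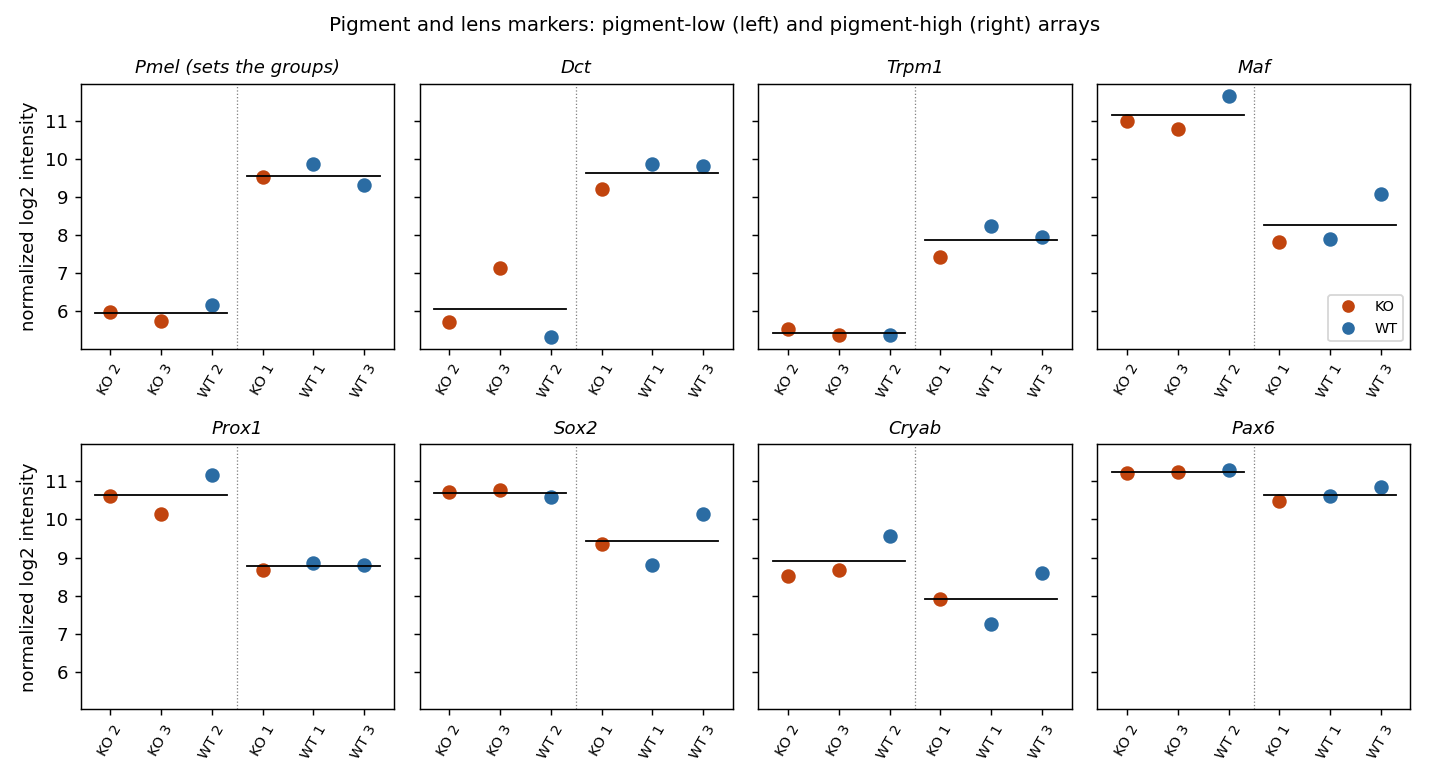
Normalized log2 intensity (vertical axis) of 8 marker genes on each array, with the pigment-low arrays left and the pigment-high arrays right of the dotted line, KO in orange, WT in blue and group means as lines. Dct and Trpm1 were lower on every pigment-low array, Maf, Prox1, Sox2 and Pax6 were higher on every one, and Cryab overlapped.

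Melanin genes followed Pmel in part. Dct, the enzyme dopachrome tautomerase of melanin synthesis, had log2 intensities of 5.71, 7.13 and 5.34 on KO 2, KO 3 and WT 2, against 9.21, 9.85 and 9.80 on KO 1, WT 1 and WT 3. Its groups did not overlap, the means were 6.06 ± 0.95 in pigment-low and 9.62 ± 0.36 in pigment-high arrays (SD, n = 3 each), and the difference was -3.56. KO 3 stood above the other pigment-low arrays. Trpm1, a cation channel gene that MITF activates in pigment cells, had 5.54, 5.37 and 5.37 on the pigment-low arrays and 7.43, 8.23 and 7.94 on the pigment-high arrays. It was detected on 0 of the 3 pigment-low arrays and on all 3 pigment-high arrays. The signal was therefore at least 4.38-fold lower in pigment-low pieces, with measured means of 5.43 in pigment-low and 7.87 in pigment-high arrays. Such a bound sets the brighter mean against the dim arrays' own value or the lowest detected value on each array, whichever is higher, and makes no allowance for spread. The other 3 Trpm1 probes gave differences between -1.75 and 0.12, so not every Trpm1 probe separated the groups. Ranking the arrays by raw Dct or by raw Trpm1 formed the same groups as Pmel did.

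Other melanosome genes varied. Rab27a, a GTPase that moves melanosomes, had 6.35, 5.60 and 5.70 on KO 2, KO 3 and WT 2, against 6.85, 9.26 and 7.41 on KO 1, WT 1 and WT 3, a difference of -1.95. Slc24a5, an ion exchanger of the melanosome, went the other way with 9.63, 9.89 and 9.74 on the pigment-low arrays, against 9.20, 9.34 and 9.27 on the pigment-high arrays. Those groups did not overlap, and the difference was 0.48. Mitf itself had 9.40, 10.12 and 7.57 on the pigment-low arrays and 8.78, 8.91 and 9.15 on the pigment-high arrays. The groups overlapped for this probe (0.08), while 2 further Mitf probes gave -2.35 and -0.71. Of 15 listed melanin and melanosome genes, 9 were measured, Pmel included, with 4 lower and 1 higher without overlap and a median of -0.58, against -0.032 over all named genes. Over all named genes, 8.99% were lower and 6.1% higher without overlap, and nothing is read from the comparison, since the groups were formed on these arrays. The median was 0.082 over the 5 members read by probes detected on all 6 arrays, a filter that leaves out Dct. Tyr, Mlana, Oca2 and Slc45a2 were not detected on any array, and Tyrp1 and Gpr143 were detected on fewer than 3.

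The windows upstream of 3 melanin genes are shown because Dct and Trpm1 were lower and Slc24a5 higher in pigment-low pieces, and all 3 windows hold the letters TCATGTG, the core of the M-box that MITF binds. They are the 250 bases before the start in RefSeq (GRCm38.p6), at chr14:118052247-118052496 on the minus strand for Dct, chr7:64153585-64153834 on the plus strand at the first listed start of Trpm1, and chr2:125067877-125068126 on the plus strand for Slc24a5. Capitals mark TCATGTG or its reverse complement CACATGA.
Dct: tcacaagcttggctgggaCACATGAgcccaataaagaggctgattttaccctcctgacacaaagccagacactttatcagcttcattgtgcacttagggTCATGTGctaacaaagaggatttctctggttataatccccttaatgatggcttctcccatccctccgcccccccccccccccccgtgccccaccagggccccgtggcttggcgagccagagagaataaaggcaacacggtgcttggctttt
Trpm1: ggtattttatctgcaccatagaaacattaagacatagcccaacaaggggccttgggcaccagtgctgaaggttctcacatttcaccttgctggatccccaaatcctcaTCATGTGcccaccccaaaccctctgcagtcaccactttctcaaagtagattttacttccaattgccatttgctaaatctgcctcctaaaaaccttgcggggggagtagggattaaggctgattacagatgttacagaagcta
Slc24a5: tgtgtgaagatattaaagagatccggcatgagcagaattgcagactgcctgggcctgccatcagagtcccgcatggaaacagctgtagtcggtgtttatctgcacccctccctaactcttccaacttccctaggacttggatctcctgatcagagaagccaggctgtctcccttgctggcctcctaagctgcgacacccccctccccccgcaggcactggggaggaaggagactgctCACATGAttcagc
The letters began 232 and 151 bases before the Dct start, 142 bases before the Trpm1 start and 13 bases before the Slc24a5 start. Searched on both strands, TCATGTG lay in the window of 5 of the 10 listed melanin genes that had a window (Dct, Slc24a5, Trpm1, Tyr and Tyrp1), and in 3.72% of all 27025 genes with one. The match says nothing of binding in these pieces.

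Some members of a list of pigment epithelium genes without a melanin role were lower in pigment-low pieces as well. Of these, Bmp4 and Rdh10 are not particular to that cell type, and its homeobox genes Otx2 and Otx1 overlapped. Bmp4, a BMP ligand made by the dorsal optic vesicle, had 8.59, 7.57 and 7.79 on KO 2, KO 3 and WT 2, against 9.56, 9.83 and 10.31 on KO 1, WT 1 and WT 3. The groups did not overlap, the difference was -1.92, and a second Bmp4 probe gave -0.85. Rdh10, a retinol dehydrogenase of retinoic acid synthesis, had 8.49, 7.65 and 5.79 on the pigment-low arrays and 9.25, 9.01 and 9.01 on the pigment-high arrays (-1.78). Otx2, a homeobox gene of the pigment epithelium, had means of 6.72 ± 0.96 in the pigment-low and 8.11 ± 0.52 in the pigment-high arrays (SD, n = 3 each). Its groups overlapped, since KO 3 with 7.82 lay above WT 1 with 7.78. Otx1 overlapped too (-1.44). Of 14 listed genes, 7 were measured, 3 of them lower and 0 higher without overlap, against 8.99% and 6.1% of all named genes. The list median was -1.39, but -0.064 with no detection filter. Rpe65, Rlbp1 and Lrat were not detected on any array, and Ttr, Rgr and Best1 were detected on fewer than 3. The markers of the optic vesicle and neural retina did not follow as a group. Of 20 listed genes, 15 were measured, 1 was lower without overlap (Lhx2, a homeobox gene of the early eye field, -0.90) and 1 higher (Aldh1a3, a retinaldehyde dehydrogenase, 0.91), and the median was -0.27. Foxd1 and Tbx5, markers of the ventral temporal and of the dorsal retina, differed by 0.33 and 0.22 among the KO arrays and by -3.08 and -2.98 among the WT arrays, a contrast that did not pass (limma interaction, adjusted p = 0.569 and 0.558).

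The lens programme ran opposite to the pigment genes. Prox1, a homeobox factor of lens fibre formation, had log2 intensities of 10.63, 10.13 and 11.18 on KO 2, KO 3 and WT 2, against 8.67, 8.85 and 8.82 on KO 1, WT 1 and WT 3 (difference 1.87). Maf, a leucine zipper factor that activates crystallin genes, had 10.99, 10.79 and 11.65 on the pigment-low arrays and 7.82, 7.90 and 9.06 on the pigment-high arrays (2.89). Both genes kept the groups apart in KO and in WT alike: the pigment-low KO arrays stood above KO 1 by 3.07 for Maf and by 1.71 for Prox1, and WT 2 stood above the other WT arrays by 3.17 and 2.34. Sox2, a factor of the placode and the neural retina, had 10.72, 10.77 and 10.58 on the pigment-low arrays and 9.36, 8.81 and 10.15 on the pigment-high arrays (1.25, and 0.77 from a second probe). Pax6, required for lens induction, differed by 0.60 (11.25 ± 0.05 in pigment-low and 10.65 ± 0.19 in pigment-high arrays, SD, n = 3 each), and its 2 other probes by 0.57 and 0.66. Groups did not overlap for any of these 4 genes.

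Mab21l1 and Six3, both needed for early lens development, were higher too. Mab21l1 had 11.72, 11.78 and 11.64 on the pigment-low arrays, against 10.39, 10.57 and 10.70 on the pigment-high arrays (1.16, and 1.18 from a second probe), and Six3 differed by 1.12. Zeb2, a SMAD-interacting repressor, was 1.26 higher without overlap, although its other probes gave -0.28 to 0.64. Bcl11a, a zinc finger repressor, was lower, with 5.60, 5.35 and 7.25 on KO 2, KO 3 and WT 2, against 8.91, 8.92 and 8.17 on KO 1, WT 1 and WT 3 (-2.60). Sox11 and Meis2 were lower by smaller amounts (-0.38 and -0.45), and groups overlapped for the brightest probes of Eya1, Six4, Meis1 and Mab21l2. The 3 other Eya1 probes gave -0.01 to 2.10, those of Meis1 -0.30 to 0.19 and those of Meis2 -1.08 to 0.01. Of 20 listed lens regulators, 14 were measured, 7 higher and 3 lower without overlap, with a median of 0.36. Over all named genes, 6.1% were higher and 8.99% lower without overlap. Foxe3 and Pitx3, defining factors of the lens vesicle, were each detected on fewer than 3 arrays, and Sox1 and Hsf4 on none.

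Crystallins, the structural proteins that fill lens cells, were higher in pigment-low pieces where the groups did not overlap. Cryge, a gamma crystallin, had 8.86, 9.18 and 9.09 on KO 2, KO 3 and WT 2, against 5.34, 5.26 and 5.82 on KO 1, WT 1 and WT 3. Only 1 pigment-high array detected it, and the difference was 3.57. Crybb3, a beta crystallin, had 8.73, 8.22 and 9.73 on the pigment-low arrays and 5.46, 6.32 and 5.69 on the pigment-high arrays (3.07). Crygb had 7.70, 7.18 and 8.32 on the pigment-low arrays and 6.61, 5.27 and 5.23 on the pigment-high arrays (2.03). Crygc was detected on all 3 pigment-low arrays and on 0 of the 3 pigment-high arrays, at least 1.98-fold higher, with measured means of 6.67 ± 0.58 in pigment-low and 5.33 ± 0.05 in pigment-high arrays (SD, n = 3 each). Every one of these 4 crystallins kept its groups apart. Mip, the water channel of lens fibres, had 7.92, 7.97 and 10.04 on the pigment-low arrays and 7.54, 6.66 and 6.81 on the pigment-high arrays (1.64), with WT 2 far above the rest. Cryab, a small heat shock protein of the lens, had 8.51, 8.69 and 9.56 on the pigment-low arrays, against 7.90, 7.26 and 8.59 on the pigment-high arrays, and its groups overlapped (1.00). Of 25 listed crystallin and fibre genes, 10 were measured, 5 were higher and 0 lower without overlap, against 6.1% and 8.99% of all named genes. The list median was 1.18, or 1.01 with Crygc at its bound. With undetected members included, 23 genes had a median of 0.073, below the medians of BMP targets (0.279) and lens regulators (0.255) read in the same way. Cryaa was not detected on any array, nor were 11 others of the list.

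The promoters of these 3 gamma crystallins are shown because the genes lie near each other on chromosome 1 and all 3 were higher in pigment-low pieces. They are the 130 bases before each start in RefSeq (GRCm38.p6), all on the minus strand, at chr1:65051164-65051293 for Cryge, chr1:65082291-65082420 for Crygb and chr1:65073533-65073662 for Crygc. Capitals mark GGGCCCCTTT, the longest run of letters that these 3 windows share, which was picked for that reason.
Cryge: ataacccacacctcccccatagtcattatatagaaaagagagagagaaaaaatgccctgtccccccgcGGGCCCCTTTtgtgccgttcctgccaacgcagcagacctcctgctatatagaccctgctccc
Crygb: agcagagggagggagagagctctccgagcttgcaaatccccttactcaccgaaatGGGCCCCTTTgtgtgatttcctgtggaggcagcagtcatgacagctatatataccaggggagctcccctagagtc
Crygc: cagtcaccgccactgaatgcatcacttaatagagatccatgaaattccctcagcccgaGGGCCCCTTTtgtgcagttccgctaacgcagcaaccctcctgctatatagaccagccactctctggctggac
The run began 62, 75 and 72 bases before the start of Cryge, Crygb and Crygc. Searched on both strands of the 250-base windows, it lay in 5 of 23 listed crystallin and fibre genes with a window (these 3, Crygf and Lim2) and in 0.107% of all genes. Crygf and Lim2 were not detected on any array, nor were the gamma crystallins Cryga and Crygd.

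**Figure D2:**
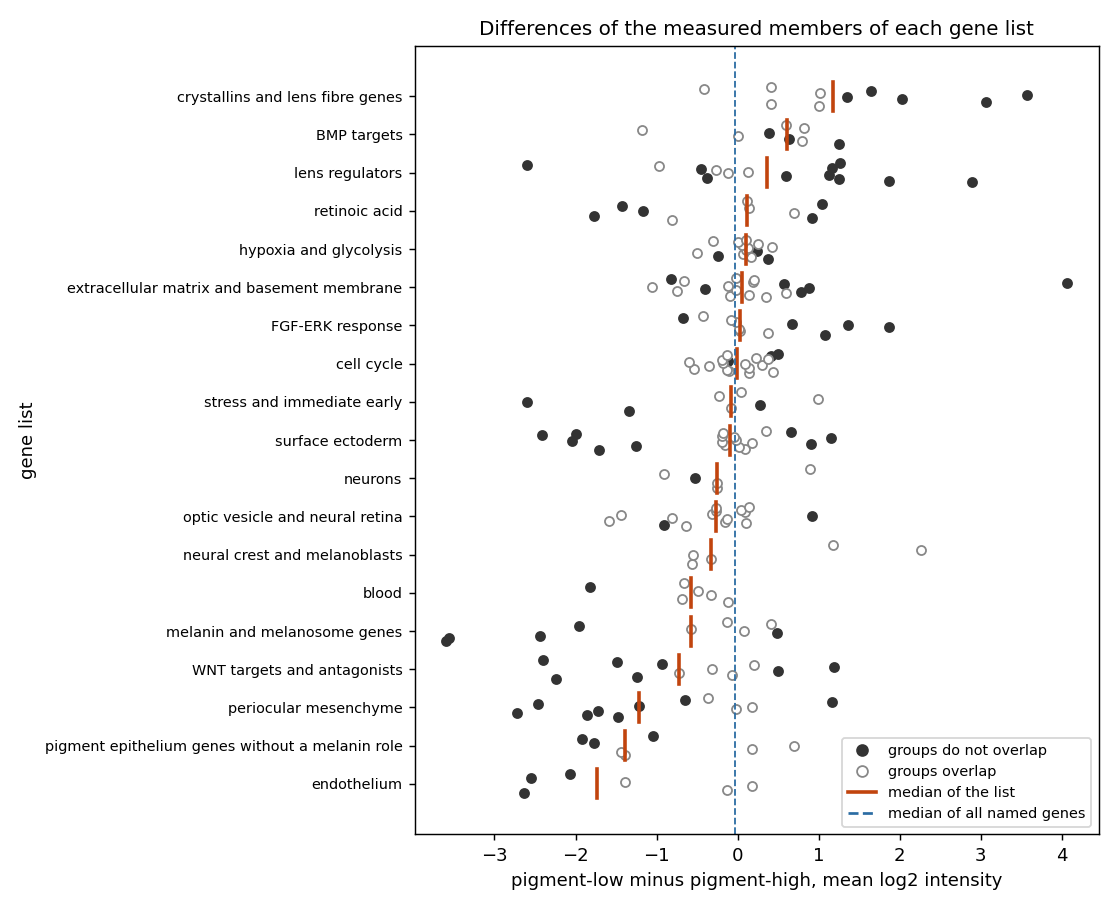
Difference between pigment-low and pigment-high arrays in mean log2 intensity (horizontal axis) for each measured member of 19 gene lists, with filled points where the groups did not overlap, orange bars at list medians and a dashed line at the median of all named genes. Over members that passed the detection filter, crystallins had a median of 1.18 and endothelium of -1.73, but without that filter 0.073 and -0.163, inside the range of the other lists, with members of most lists on both sides of 0.

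Many mesenchyme genes and some vessel genes were lower on the pigment-low arrays. Col3a1, a fibrillar collagen of mesenchyme, had 5.99, 7.15 and 6.92 on KO 2, KO 3 and WT 2, against 8.98, 9.23 and 9.24 on KO 1, WT 1 and WT 3 (-2.47). Alx4, a homeobox gene of craniofacial mesenchyme, had 8.18, 7.30 and 5.44 on the pigment-low arrays and 9.77, 9.67 and 9.63 on the pigment-high arrays (-2.72, and -1.18 from a second probe). Twist1, a helix-loop-helix factor of mesenchyme, had 6.75, 6.71 and 6.76 on the pigment-low arrays and 8.30, 8.50 and 8.57 on the pigment-high arrays (-1.72). The spread within each group was a small part of these differences except for Alx4, where WT 2 was lowest. Alx1 and Foxc2 differed by -1.86 and -1.47 without overlap. Pdgfra, a growth factor receptor that the lens also makes, was the exception with 10.26, 10.67 and 10.16 on the pigment-low arrays, against 9.29, 9.00 and 9.31 on the pigment-high arrays (1.16). Of 20 listed genes of the periocular mesenchyme, 11 were measured, 7 lower and 1 higher without overlap, against 8.99% and 6.1% of all named genes. The list median was -1.22.

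Pecam1, an adhesion molecule of endothelium, had 5.61, 5.30 and 5.22 on the pigment-low arrays, where no array detected it, and 9.39, 6.97 and 7.70 on the pigment-high arrays. It was at least 4.86-fold lower in pigment-low pieces. Esam and Cldn5, junction proteins of vessels, differed by -2.54 and -2.07 without overlap, whereas Kdr, a VEGF receptor, had means of 7.90 ± 0.16 in pigment-low and 8.02 ± 0.19 in pigment-high arrays (SD, n = 3 each). Of 10 endothelial genes, 6 were measured and 3 were lower without overlap (median -1.73), against 8.99% of all named genes. Pecam1, 1 of the 3, passed the detection filter through the pigment-high arrays alone, and with no filter the list median was -0.163. Of 12 blood genes, 6 were measured, and only Tal1, a haematopoietic factor, was lower without overlap (6.41 ± 0.66 in pigment-low and 8.24 ± 0.67 in pigment-high arrays, SD, n = 3 each), whereas the globin genes overlapped. Of 9 neural crest genes, 5 were measured and 0 kept the groups apart, against 8.99% lower and 6.1% higher of all named genes. Ednrb and Kit were higher with overlap (2.26 and 1.17), and the other 3 lower with overlap, Erbb3 the furthest (-0.56). So few genes do not show whether the list differs from all genes. Sox10 and Foxd3 were not detected on any array. Among 5 measured neuronal genes, Elavl4 was lower (-0.53).

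Summed over the defining markers of each cell type on the linear normalized scale, lens markers reached 7465 to 10339 units in pigment-low and 2866 to 4364 units in pigment-high arrays (5 of 7 measured). Pigment epithelium markers, Pmel among them, summed to 409 to 1573 units in pigment-low and 2163 to 2848 units in pigment-high arrays (5 of 7). Endothelial markers summed to 349 to 451 units in pigment-low and 573 to 1190 units in pigment-high arrays (3 of 5), and neuronal markers to 359 to 406 units in pigment-low and 457 to 549 units in pigment-high arrays (3 of 5). The lens, endothelial and neuronal sums kept the groups apart. The pigment epithelium sum did so only with Pmel, which formed the groups: its other 4 measured markers summed to 338 to 1519 units in pigment-low and 1434 to 2124 units in pigment-high arrays and overlapped. A linear sum is led by its brightest member, here Mitf on KO 3 (10.12 on the log2 scale), whereas Dct and Trpm1 each kept the groups apart. The sums of the remaining cell types overlapped too. Mesenchyme markers summed to 1521 to 2082 units in pigment-low and 1950 to 2222 units in pigment-high arrays (5 of 7), and blood markers to 4328 to 5101 units in pigment-low and 3549 to 8028 units in pigment-high arrays (3 of 5). Pdgfra, at 10.16 to 10.67 on the log2 scale in pigment-low arrays, led the mesenchyme sum there, while 4 of the 5 measured markers were lower without overlap. Optic vesicle markers summed to 199.6 to 426 units in pigment-low and 239 to 627 units in pigment-high arrays (4 of 5), and neural crest markers to 363 to 892 units in pigment-low and 179 to 466 units in pigment-high arrays (3 of 5). Surface ectoderm markers summed to 6428 to 7014 units in pigment-low and 5716 to 6646 units in pigment-high arrays (6 of 6). The part of these cell types in any gene's difference was not tested.

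Surface ectoderm genes lay on both sides. Several genes of stratified epithelium were lower in pigment-low pieces, while others overlapped. Trp63, the master factor of stratified epithelium, had 9.01, 8.47 and 7.78 on KO 2, KO 3 and WT 2, against 10.40, 10.24 and 9.74 on KO 1, WT 1 and WT 3 (-1.71). Perp, a desmosome gene that TRP63 activates, differed by -2.41, Grhl3, a factor of the epidermal barrier, by -2.05, and Cldn3, a tight junction protein, by -1.99. Krt14, a basal keratin, was detected on 0 of the 3 pigment-low arrays and was at least 1.74-fold lower, with measured means of 5.29 in pigment-low and 6.54 in pigment-high arrays. Tfap2a, a factor of the head ectoderm and placodes, was higher, with 10.47, 10.11 and 10.67 on the pigment-low arrays and 9.19, 9.34 and 9.26 on the pigment-high arrays (1.16, and 0.56 to 2.26 from its 4 other probes). Epcam, an epithelial adhesion molecule, was 0.90 higher (10.69 ± 0.03 in pigment-low and 9.79 ± 0.09 in pigment-high arrays, SD, n = 3 each). Krt5, a basal keratin, and Ovol1 and Grhl2, factors of epidermal differentiation, overlapped with differences of 0.09, -0.02 and -0.19, and a second Grhl2 probe gave 0.65. Krt8 and Krt18, keratins of simple epithelium, overlapped, with differences of 0.01 and -0.16. Of 22 listed genes, 18 were measured, 3 higher and 5 lower without overlap, against 6.1% and 8.99% of all named genes. The list median was -0.10.

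Genes that respond to signals differed pathway by pathway. Among BMP targets, Id1, an inhibitor of helix-loop-helix factors, had 9.06, 9.07 and 8.72 on KO 2, KO 3 and WT 2, against 7.20, 7.46 and 8.44 on KO 1, WT 1 and WT 3 (1.25, and 0.64 from a second probe). Id3 was 0.63 higher without overlap and Id2 0.80 higher with overlap. Smad7, an inhibitory SMAD, was detected on the 3 pigment-low arrays only and was at least 1.2-fold higher (measured means 5.95 in pigment-low and 5.57 in pigment-high arrays). Gata2 was lower with overlap (-1.17), and Id4 overlapped (0.004, and 1.06 from a second probe). Of 15 listed BMP targets, 8 were measured, 3 higher and 0 lower without overlap, with a median of 0.61. Smad7 passed the detection filter through the pigment-low arrays alone, and with no filter the list median was 0.279. Over all named genes, 6.1% were higher and 8.99% lower without overlap. The ligand Bmp4 was lower, as given above. Among FGF-ERK response genes, Etv1 and Etv5, ETS factors that FGF signalling switches on, were higher. Etv1 had 9.24, 9.36 and 9.54 on the pigment-low arrays, against 7.41, 7.42 and 7.69 on the pigment-high arrays (1.87, and 1.70 and 1.95 from 2 other probes). Etv5 differed by 1.36 and the feedback inhibitor Spry2 by 1.08, whereas Dusp6 overlapped (-0.02, and 0.61 from a second probe). Of 14 listed genes, 11 were measured, 4 higher and 1 lower without overlap, with a median of 0.03.

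Genes of the WNT pathway lay on both sides. Axin2, a feedback inhibitor and common readout of WNT signalling, had 6.29, 7.29 and 6.77 on KO 2, KO 3 and WT 2, against 9.52, 8.98 and 8.56 on KO 1, WT 1 and WT 3 (-2.24). Lef1, a nuclear partner of beta-catenin, differed by -1.24 and by -1.59 on a second probe, and Apcdd1, a WNT inhibitor that WNT induces, by -2.40. Sfrp2, a secreted WNT antagonist, had 13.39, 13.35 and 13.53 on the pigment-low arrays and 11.98, 11.89 and 12.83 on the pigment-high arrays (1.19). The antagonist Frzb was lower (-1.49), Dkk3 was 0.49 higher, and Sfrp1, Dkk1 and the target Rnf43 (-0.07) overlapped. Of 16 listed WNT genes, 11 were measured, 2 higher and 5 lower without overlap, against 6.1% and 8.99% of all named genes. The list median was -0.72, or -0.60 with Wif1 at its bound. In the retinoic acid list, Rarb (-1.43), Crabp1 (-1.17) and Rdh10 were lower and Cyp26a1, which breaks retinoic acid down, was higher (1.04), with 9 of 13 genes measured and a median of 0.12. Hspb1, a small heat shock protein, was lower (6.01 ± 0.41 in pigment-low and 8.61 ± 0.72 in pigment-high arrays, SD, n = 3 each), as was Jun (-1.34), while the 7 measured stress genes had a median of -0.09. Ddit3, of the same list, was higher with overlap (0.99). Of 22 cell cycle genes, 18 were measured, with differences between -0.60 and 0.50. Without overlap, 2 were higher and 1 lower, again against 6.1% and 8.99% of all named genes. Of 18 genes of hypoxia and glycolysis, 14 were measured, and their differences lay between -0.50 and 0.42.

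The genes furthest apart in both genotypes were then ranked by the smaller of their WT and KO differences. At the head of those higher in pigment-low pieces stood Tnc, the matrix glycoprotein tenascin C, with 10.06, 9.94 and 10.17 on KO 2, KO 3 and WT 2, against 5.58, 6.50 and 5.89 on KO 1, WT 1 and WT 3. The difference was 4.07, and 2 further Tnc probes gave 0.83 and 1.34. Ntrk2, the receptor for the neurotrophin BDNF, had 9.40, 9.31 and 9.82 on the pigment-low arrays and 6.06, 5.45 and 6.96 on the pigment-high arrays (3.35). Its 2 other probes gave -0.13 and 0.09, so the difference belonged to a single probe. Cryge, Maf and Crybb3, described above, were next to them in the ranking.

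**Figure D3:**
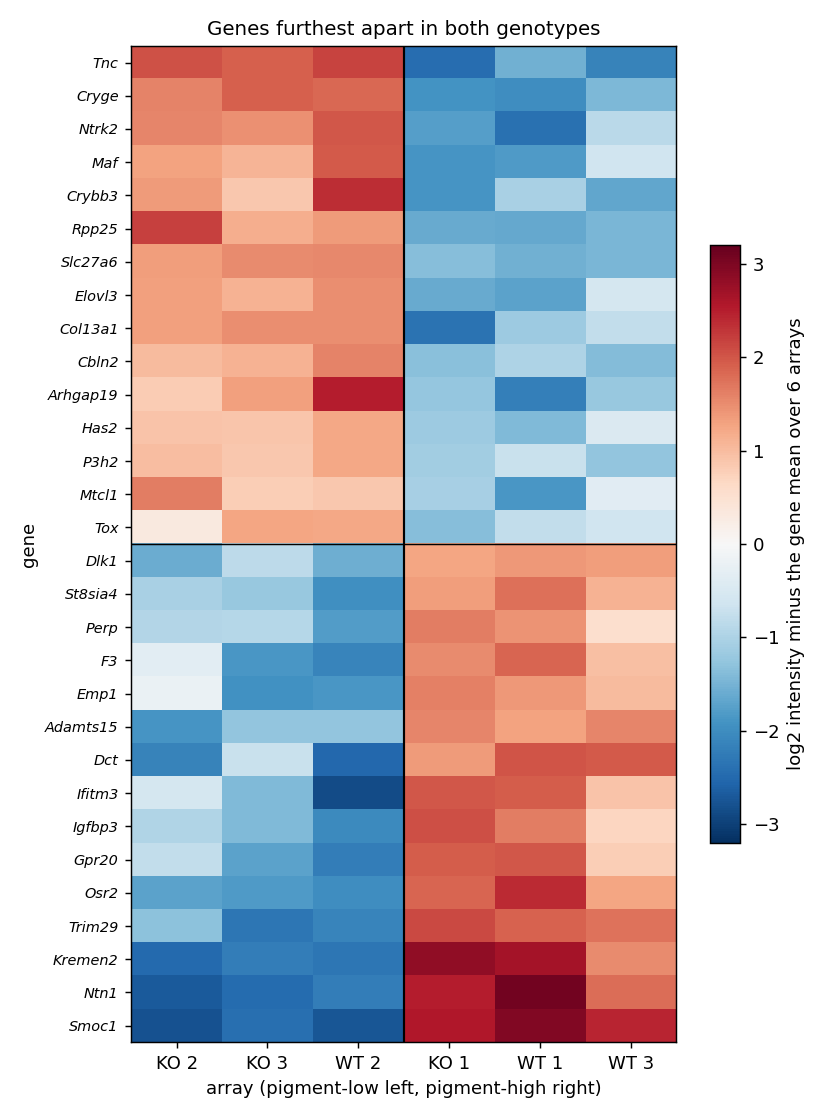
Log2 intensity of each gene minus its mean over the 6 arrays (colour) for the 15 genes highest (upper block) and 15 genes lowest (lower block) in pigment-low pieces, with pigment-low arrays left and pigment-high arrays right. The genes were chosen for this separation, and Smoc1 and Ntn1 show the widest gap.

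The other high genes had varied roles. Slc27a6, a fatty acid transporter, was detected on the 3 pigment-low arrays (8.15, 8.31 and 8.36) and on 0 of the pigment-high arrays, at least 6.0-fold higher, with measured means of 8.27 ± 0.11 in pigment-low and 5.35 ± 0.09 in pigment-high arrays (SD, n = 3 each). Elovl3, a fatty acid elongase, had 8.28, 8.09 and 8.46 on the pigment-low arrays and 5.37, 5.26 and 6.42 on the pigment-high arrays (2.60). Has2, the synthase of hyaluronan, had 10.46, 10.44 and 10.78 on the pigment-low arrays, against 8.38, 8.13 and 9.09 on the pigment-high arrays (2.03). The pigment-low arrays lay close together for all 3 of these genes. P3h2, a prolyl hydroxylase that modifies collagen, was 2.06 higher, and its other probes gave 1.83 and 2.65. Col13a1, a transmembrane collagen, was 2.86 higher. Rpp25, a subunit of ribonuclease P, was detected in pigment-low pieces only and was at least 7.21-fold higher (measured means 8.54 in pigment-low and 5.40 in pigment-high arrays), as was Cbln2, a secreted synaptic organizer, at least 4.47-fold higher (7.85 in pigment-low and 5.37 in pigment-high arrays). Arhgap19 (3.10), a GTPase-activating protein, Mtcl1 (2.19), which binds microtubules, and Tox (1.87), a nuclear HMG-box protein, complete the 15. The second Mtcl1 probe gave 0.33. Among 18 measured matrix and basement membrane genes, each read by its brightest probe, only Tnc was beyond 2-fold without overlap. Over all named genes, 1.63% were higher in that way. Lamc1, Col4a5 and Fn1 were higher by less, and Col4a2 and Fbn2 lower, without overlap. That made 4 higher and 2 lower, against 6.1% and 8.99% of all named genes, and the list median was 0.06. The 3 other Fn1 probes gave 1.92 to 2.21, against 0.57 from its brightest.

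On the lower side, Smoc1 and Ntn1 headed the ranking. Smoc1, a calcium-binding matrix protein whose loss in humans causes microphthalmia with limb anomalies, had 5.22, 5.59 and 5.25 on KO 2, KO 3 and WT 2, against 10.56, 10.96 and 10.44 on KO 1, WT 1 and WT 3. No pigment-low array detected it, and it was at least 30.2-fold lower. The difference of Pmel itself was -3.59 on the log2 scale. Ntn1, the guidance cue netrin 1, which is needed for closure of the optic fissure, had 5.36, 5.59 and 5.84 on the pigment-low arrays and 10.57, 11.15 and 9.85 on the pigment-high arrays. It was likewise detected on no pigment-low array and was at least 27.5-fold lower. Kremen2, a receptor of the WNT antagonist Dickkopf, had 5.71, 6.0 and 5.89 on the pigment-low arrays, against 11.05, 10.86 and 9.72 on the pigment-high arrays (-4.68). Osr2, a zinc finger factor of craniofacial mesenchyme, was at least 10.9-fold lower, with measured means of 5.50 ± 0.14 in pigment-low and 9.19 ± 0.56 in pigment-high arrays (SD, n = 3 each).

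Trim29, a tripartite motif protein of stratified epithelia, had 6.43, 5.44 and 5.62 on the pigment-low arrays and 9.87, 9.63 and 9.49 on the pigment-high arrays (-3.83, and -4.41 from a second probe). Igfbp3, which binds insulin-like growth factors, had 7.59, 7.14 and 6.52 on the pigment-low arrays, against 10.62, 10.18 and 9.23 on the pigment-high arrays (-2.92). Dlk1, a membrane protein related to Notch ligands, had 8.39, 9.15 and 8.43 on the pigment-low arrays and 11.25, 11.37 and 11.32 on the pigment-high arrays (-2.66), but its second probe gave -0.56. The groups did not overlap for these 3 genes. Gpr20 (-3.15), an orphan receptor, Ifitm3 (-3.22, and -2.95 from a second probe), an interferon-induced membrane protein, and Adamts15 (-2.94), a matrix protease, were lower by similar amounts. F3 (-2.89), which encodes tissue factor, St8sia4 (-2.81), a polysialyltransferase, and Emp1 (-2.67), an epithelial membrane protein, follow, and Dct and Perp complete the 15.

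The same arrays can be read within each genotype, where WT 2 is set against WT 1 and WT 3, and KO 2 and KO 3 against KO 1. The WT and KO differences share no array, although Pmel chose the sides in both. Across 10098 genes without Pmel, they correlated with a Pearson r of 0.23 and a Spearman coefficient of 0.12. These are values across genes, which are not independent replicates and share the arrays. Of the 100 genes lowest in the KO comparison, 85 were lower in the WT comparison too (median -1.70), and of the 100 lowest in the WT comparison, 80 were lower in the KO comparison (median -0.90). Of the 100 highest in the KO comparison, 64 were higher in the WT comparison, and in the reverse reading 63 were. Over all genes, 47.9% were higher in the KO comparison and 45.2% in the WT comparison. For Ednrb, Mitf and Mip the KO and WT differences were unlike in size or sign, although none of these genes passed the interaction test. Ednrb, the endothelin receptor of melanoblasts, had 8.84, 9.41 and 6.01 on KO 2, KO 3 and WT 2, against 5.49, 6.77 and 5.21 on KO 1, WT 1 and WT 3, so that the difference was 3.63 in KO and 0.02 in WT arrays. Mitf differed by 0.98 in KO and by -1.46 in WT arrays, and Mip by 0.41 in KO and by 3.30 in WT arrays.

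**Figure D4:**
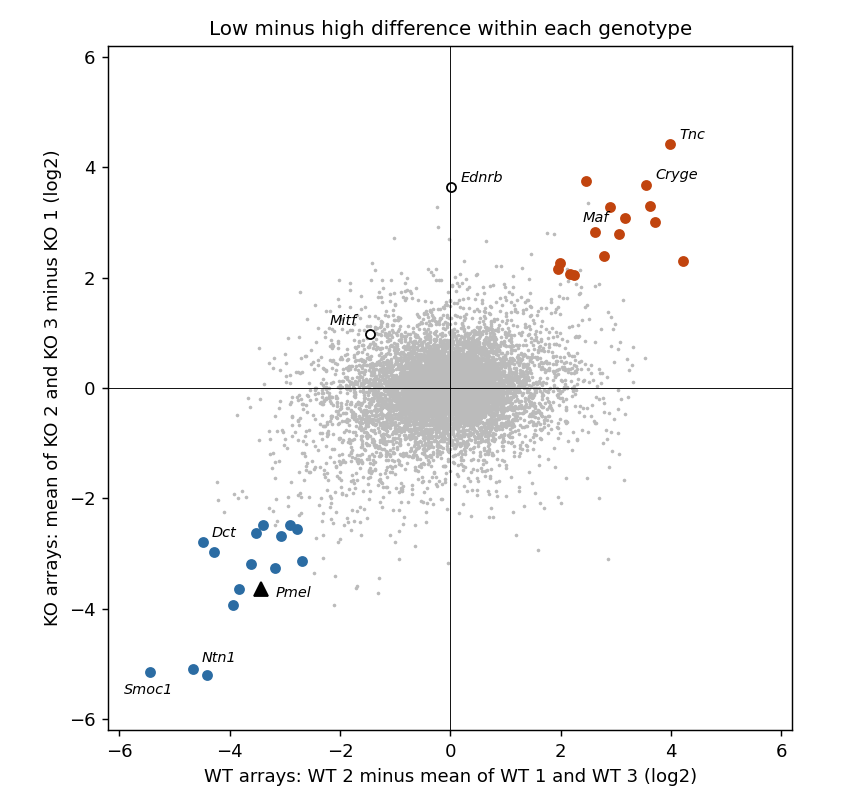
Low minus high log2 difference in the WT arrays (horizontal axis) and in the KO arrays (vertical axis) for each named gene, with the 15 highest genes in orange, the 15 lowest in blue, Pmel as a triangle and Mitf and Ednrb as open circles. Smoc1 and Ntn1 lie furthest towards the lower left, while Ednrb lies near 0 on the WT axis and at 3.63 on the KO axis.

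Whether the pigment-related difference itself differed between genotypes was tested with an interaction term in limma. With Benjamini-Hochberg adjustment over 20959 probes, 0 passed (0%), the lowest adjusted p was 0.558, and 1722 probes had an unadjusted p below 0.05. The genes with the lowest p therefore count as not passing. Rbm28, an RNA-binding protein, had an interaction of 3.14 log2 units (95% interval 2.38 to 3.89), because KO 1 stood at 7.90 and the other 5 arrays between 10.39 and 10.91. Nipsnap1, a mitochondrial protein, had 2.94 (1.98 to 3.90), with WT 2 lowest at 8.26. Elmo1, an adaptor in Rac activation, had -5.96 (-7.93 to -3.98), with KO 1 at 9.30, WT 2 at 9.76 and all other arrays at or below 7.13, and its second probe did not separate the arrays in the same way (low minus high 1.36, against -0.31). Clec2e, a lectin-like receptor, had -3.39 (-4.63 to -2.16), with WT 2 alone above 6. For Ednrb the interaction was 3.62 (0.77 to 6.47, adjusted p = 0.58), for Mitf 2.44 (1.05 to 3.84, adjusted p = 0.558) and for Mip -2.89 (-4.58 to -1.20, adjusted p = 0.558), all from this limma fit.

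The effect of BMP receptor loss was then tested with the pigment group in the limma model, so that KO and WT arrays are compared at a like Pmel level. Again 0 of 20959 probes passed the adjusted threshold of 0.05 (0%), and the lowest adjusted p was 0.728. An unadjusted p below 0.05 was reached by 1366 probes, 834 higher and 532 lower in KO. Maf differed by -0.71 between KO and WT (95% interval -1.42 to -0.01, limma adjusted p = 0.759) and Prox1 by -0.48 (-1.02 to 0.06, adjusted p = 0.761). Sox2 (0.03, interval -0.73 to 0.78) and Pax6 (-0.17, -0.49 to 0.16) had intervals that include 0, as had Dct (0.24, -1.03 to 1.50) and Cryge (-0.14, -1.18 to 0.90). Id1 differed by -0.20 (-1.14 to 0.73) and Id3 by -0.04 (-0.68 to 0.60). Smoc1 differed by 0.00 between genotypes (-0.85 to 0.85) and was at least 30.2-fold lower in pigment-low than in pigment-high arrays.

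The 6 genes with the lowest genotype p were Abcc10, Csnk2a2, Dpysl2, Gna13, Tedc1 and Zfp386, each with an adjusted p of 0.728. Abcc10, a transporter of the ABC family, had 5.71, 5.27 and 5.23 on KO 2, KO 3 and KO 1, against 7.82, 7.83 and 7.61 on WT 2, WT 1 and WT 3, a difference of -2.41 (-3.37 to -1.45). Its genotypes did not overlap, as was so for 2059 of the 20959 probes (9.82%). Csnk2a2, a catalytic subunit of casein kinase 2, differed by -0.93 (-1.33 to -0.53) and Dpysl2, a cytoskeletal regulator of axons, by -0.42 (-0.61 to -0.24). Zfp386, a zinc finger gene, differed by 2.43 (1.34 to 3.52), Gna13, a G protein subunit, by 2.29 (1.17 to 3.40), and Tedc1, a protein of centrioles, by 1.56 (0.88 to 2.25). For Gna13 the genotypes were set apart mainly by WT 2 at 5.83, and the difference was 1.24 without it. No member of the gene lists passed in either direction.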

How the data were processed

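Each sample was measured on 1 Illumina array. The deposited table gives, per the file headers, a mean bead intensity, a bead count, a standard error of the beads and a detection p-value for each probe. The deposited intensity is linear and not normalized. The authors' second deposited table holds processed intensity values, with array medians between 18.51 and 18.54; how it was normalized, and on which scale, is not given in sources used here, and its ranks match the first, and it served as an alternative. GenomeStudio is named in the submitters' processing notes, without a version. 

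The neqc function of limma 3.58.1 in R 4.3.3 turned the deposited intensities into log2 values: normexp background correction, for which detection p-values stood in for control probes, an added offset of 16, then quantile normalization. A probe was kept if 3 or more arrays detected it (p under 0.05). Gene names came from the platform annotation, with 29976 probes of 1 symbol, 10 of several and 16646 unnamed. A gene was read by its probe with the highest mean. Arrays, not beads, were replicates. Pigment groups followed the raw signal of the brighter Pmel probe, and no test was made between them. KO minus WT with the pigment group, and the genotype by group interaction, were fitted with lmFit and eBayes with a variance trend, two-sided, with Benjamini-Hochberg adjustment over all kept probes and 95% intervals. These p-values measure the spread between samples, which may be partly technical, and precision is limited by the number of arrays. Within each genotype, Xist and the Y-linked genes differed between arrays, so those arrays were not all aliquots of 1 pool.

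The groups, the 20 gene lists and the markers were chosen with earlier results of these data known. Named in full were the 15 highest and 15 lowest genes whose groups did not overlap, by the smaller of the WT and KO differences. Predicted and clone names were left out of that ranking. The 6 and 4 genes with the lowest p in the fits were named as well. Further names came from the measured markers and the 3 listed members furthest apart in each list, but not all of these are named. Other list members in the text were picked after their values were seen. The fits were checked on simulated data. Samples were not paired by replicate number in the main fits. Deviations of same-numbered samples correlated by 0.106, 0.136 and -0.0076. For replicates 1 and 2, but not 3, the same-numbered KO array matched the WT array best. These 3 values cannot settle whether the numbers pair the samples. Alternatives were other normalizations, the second table, other filters, leaving out each array, groups set by Dct or Trpm1, the replicate block, array weights, no group term and the mean of probes.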

Additional observations from a re-analysis of the deposited data

How the results depend on the processing

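For some of the alternatives tried, the sign could not change. Groups set by Dct or Trpm1 were the same arrays. Leaving out 1 array cannot turn the sign of a gene whose groups do not overlap, and many genes were named for that trait. The count of signs kept is therefore no measure of robustness: with these included, 1325 of 1345 differences of named genes kept their sign. Of the 20 that did not, 19 belonged to 7 genes whose groups overlapped (Elavl3, Hbb-bh1, Klf1, Krt8, Mitf, Pax2 and Six6). The other was Trpm1, at 0.0093 when only probes detected on all 6 arrays were used, because another probe then represented it. With that filter, 217 probes were higher and 238 lower, fewer because fewer probes were eligible. Leaving out 1 array gave 534 to 788 higher and 601 to 890 lower probes. Fewer arrays make it easier for groups not to overlap, and the counts exceeded 1.5 times the main ones without KO 1 (705 higher), KO 2 (682 higher), KO 3 (788 higher and 890 lower) and WT 3 (713 higher and 856 lower). Median centring gave 538 higher and 457 lower probes, so that 54.1% of them were higher, against 44.1% in the main setting, and 437 and 452 of the original ones remained. The share of probes at least 1 log2 unit apart in WT with the same sign in KO was 58.6%, against 60.2% on raw quantile-normalized values and 55.8% with median centring.

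Medians of the gene lists depended on the filter. With no filter, crystallins had 0.073, melanin genes -0.118, pigment epithelium genes -0.064, periocular mesenchyme -0.38, endothelium -0.163, BMP targets 0.279, lens regulators 0.255 and WNT genes -0.72, so that crystallins and endothelium no longer had the outermost medians. With probes detected on all 6 arrays, melanin genes had 0.082, periocular mesenchyme -0.65 and endothelium, then a single gene, -0.126. Raw quantile-normalized values gave -0.93 for periocular mesenchyme. The mean over the probes of each gene gave -0.99 for melanin genes and 0.298 for FGF-ERK genes. Leaving out 1 array gave medians of 0.102 to 0.386 for FGF-ERK genes (highest without KO 1), -0.96 to -0.44 for WNT genes (outermost without KO 3 and KO 2) and -0.015 to 0.209 for matrix genes (outermost without KO 1 and WT 1). The retinoic acid median turned to -0.068 without WT 1 and -0.082 without WT 3. The surface ectoderm median turned to 0.019 without KO 1 and 0.022 without WT 2 and was -0.266 without WT 3. Stress genes had 0.026 without KO 2 and -0.284 without KO 3. Optic vesicle genes ranged from -0.484 (without WT 1) to -0.054 (without KO 2). BMP targets fell to 0.407 without WT 2. The cause of these shifts was not tested.

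With the replicate number as a block, 1 probe passed for KO minus WT in limma, of Xist (-5.36, adjusted p = 3.35e-04, against -2.80 and adjusted p = 0.787 without the block). In the block fit, the KO term rests on KO 1 against WT 1 and KO 2 against WT 2, since KO 3 and WT 3 differ in pigment group. Xist was high on WT 1 and WT 2, and the Y-linked genes on KO 1 and KO 2. Sex and genotype therefore cannot be told apart in that fit. Over the other alternatives 0 probes passed, with lowest adjusted p-values of 0.118 (without KO 1) to 1.00, and for the interaction the lowest was 0.0973, on the values of the second table. The pigment difference in the block fit rests on KO 3 against WT 3 alone, less the KO term of the other replicates. Its probe counts are therefore not set beside the main ones. Groups set by Dct or by Trpm1 were the same arrays. With 3 arrays a side, 1 slide and amplified RNA, a probe near the detection limit on either side yields only a bound, and slide position is fully shared with the pigment groups.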
